A study of Mus musculus with 2 samples.

Results

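Prostaglandins are local lipid signals that carry messages between neighbouring cells of the kidney, and 10 mouse genes of their synthesis, breakdown and reception are described here. They are Pla2g4a, Ptgs1, Ptgs2, Ptges, Ptgds, Hpgd and the 4 prostaglandin E2 receptor genes Ptger1, Ptger2, Ptger3 and Ptger4. The genes were chosen by name, and all 10 were found among the 43346 gene rows, of which 42462 had a symbol in the annotation. Polyadenylated RNA had been sequenced from the kidney of an adult female mouse of the inbred laboratory strain C57BL/6J, aged 10 weeks. There was 1 group with no treatment and no altered gene, and it held 2 libraries of 1 tissue sample. Library 2, labelled technical replicate 2 and dated to May 2015 in the labels, held 20720537 expected counts, and library 1, labelled technical replicate 1, held 28263730. Every SD below is over these 2 technical replicates, so it carries no information on differences between animals, and p-values compare 2 libraries, not conditions. A whole kidney mixes many cell types, so fewer cells of a type and less RNA per cell cannot be told apart.

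As background, the pathway begins when the cytosolic phospholipase A2 encoded by Pla2g4a frees arachidonic acid from membranes. The cyclooxygenases encoded by Ptgs1 and Ptgs2 convert it to prostaglandin H2, which terminal synthases turn into the active prostaglandins, E2 by the enzyme encoded by Ptges and D2 by that encoded by Ptgds. Prostaglandin E2 is a major prostanoid of the kidney, where it acts on renal blood flow, renin release and the reabsorption of salt and water along the thick ascending limb and the collecting duct. The EP receptors differ in coupling: EP1 raises intracellular calcium, EP2 and EP4 raise cAMP, and EP3 mainly lowers it, which opposes the action of vasopressin on the tubule. The dehydrogenase encoded by Hpgd ends the signal by oxidising prostaglandins to inactive forms.

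The Ptger3 transcripts differ in the sequence they carry, and these stretches are printed because a result below compares the shares of these transcripts. They are the coding ends of the Ptger3 transcripts (GENCODE M21 transcripts on GRCm38, forward strand), with 30 shared bases of the second exon in lower case and the transcript's own coding end, up to and including the stop codon, in capitals. The first runs within chr3:157605115-157643878 and the second within chr3:157605115-157643955, introns left out.
Ptger3-202: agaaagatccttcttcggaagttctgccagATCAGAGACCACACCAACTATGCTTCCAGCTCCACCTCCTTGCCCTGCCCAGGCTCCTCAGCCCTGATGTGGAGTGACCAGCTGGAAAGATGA
Ptger3-201: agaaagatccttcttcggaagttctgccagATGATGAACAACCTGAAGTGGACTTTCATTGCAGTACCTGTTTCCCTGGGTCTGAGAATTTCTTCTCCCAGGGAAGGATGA
Both transcripts share 336 codons. Ptger3-202 includes a further exon of 89 bases (chr3:157641721-157641809) and adds 30 codons of its own, and Ptger3-201 skips that exon and adds 26. The capitals are 57.0% G or C in Ptger3-202 and 45.7% in Ptger3-201.

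A further pair are the final 90 coding bases, stop codon included, of Ptgds-201 (within chr2:25467326-25467887, reverse strand, an intron left out) and Hpgd-201 (chr8:56320116-56320205, forward strand), with each G and C in capitals. They show the base composition of the gene with the highest log2 ratio between the libraries and of 1 of the lowest.
Ptgds-201: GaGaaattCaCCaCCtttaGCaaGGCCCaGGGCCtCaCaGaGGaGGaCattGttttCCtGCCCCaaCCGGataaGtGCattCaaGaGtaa
Hpgd-201: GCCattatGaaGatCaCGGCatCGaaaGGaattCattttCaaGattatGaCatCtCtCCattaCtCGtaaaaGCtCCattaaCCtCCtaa
G and C make up 50% of the Ptgds stretch and 37.8% of the Hpgd stretch, against 56.2% and 40.5% of the whole transcripts.

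The 2 libraries stood apart, which touches every value below. TPM are length-corrected shares of a library. Of all TPM, 36.5% in library 2 and 74.5% in library 1 belonged to mitochondrial genes and 7 nuclear copies of them, and 13223 and 9532 genes reached 1 TPM. The log2 ratio of library 2 over library 1 followed the GC content of the transcript: its median was −1.89 over 626 genes under 40% GC and 5.58 over 452 genes above 60% GC. To check the kidney label, markers of its cell types were read. Their summed TPM in library 2 and library 1 was 4112 and 1139 for the thick ascending limb, 433 and 31.6 for principal cells of the collecting duct, 183 and 81.8 for podocytes, 203 and 53.5 for stroma, 75.3 and 7.33 for macrophages and 9.11 and 0.31 for platelets. For the proximal tubule it was 5408 and 857, and for the distal convoluted tubule 315 and 6.88. Intercalated cell markers summed to 315 and 54.7, those of endothelium to 309 and 103 and those of the thin limb to 35.4 and 8.53. Juxtaglomerular cell markers summed to 96.1 and 1.43. All 5 thick limb markers, all 5 podocyte markers and 5 of 7 principal cell markers reached 1 TPM in both libraries. Both macula densa markers, Nos1 and Pappa2, stayed under 1 TPM in both (summed 0.26 and 0.1). Of the adrenal markers none reached 1 TPM in either library (summed 1.6 and 0.49). Some markers of other adjoining tissues were found. Summed TPM in library 2 and library 1 was 103 and 24.6 for fat, led by Fabp4 (72.7 and 23.0), and 12.5 and 1.6 for urothelium. Of 4 fat markers, 2 reached 1 TPM in both libraries, 1 in library 2 only and 1, Lep, in neither. Of 4 urothelium markers, 1 reached it in both libraries, 2 in library 2 only and 1, Krt20, in neither. The part of these differences in the results below was not tested except where a value is given.

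Of the 10 genes, 5 reached 1 TPM in both libraries: Ptger3, Hpgd, Ptges, Pla2g4a and Ptgs1. As deposited, Ptgds, Ptger1 and Ptger4 reached it in library 2 only, and Ptgs2 and Ptger2 in neither. With TPM rescaled without mitochondrial genes and their 7 nuclear copies, Ptger1 and Ptger4 also reached 1 TPM in both libraries. Ptger1 then stood at 8.85 in library 2 and 2.08 in library 1, and Ptger4 at 3.45 and 3.53. Ptgs2 then reached 1.41 in library 1. The order that follows is of TPM as deposited. The order by mean TPM began with Ptger3 at 35.5 ± 6.29 and Hpgd at 30.1 ± 4.28 (SD, n = 2 libraries), which swapped places between the libraries. A step down followed to Ptges at 10.0 ± 10.1, Pla2g4a at 8.47 ± 0.785 and Ptgs1 at 8.03 ± 6.16, none of which differed from the next beyond the SD. Ptgds had 4.65 ± 6.47 TPM, Ptger1 3.08 ± 3.60 and Ptger4 1.55 ± 0.912, again within their SD of each other. Ptgs2 stood at 0.32 ± 0.0566 TPM and Ptger2 at 0.07 TPM in each library, the latter from 4 and 8 counts. Each of the last 2 steps, from Ptger4 to Ptgs2 and from Ptgs2 to Ptger2, exceeded the SD and held in both libraries. These SD depend on the scaling of the TPM. On the rescaled TPM Ptgs2 stood at 0.927 ± 0.687, Ptger2 at 0.193 ± 0.116, Pla2g4a at 23.9 ± 16.2 and Hpgd at 86.4 ± 61.8. For Ptgs1 and Ptger4 the rescaled SD was narrower, at 3.61 and 0.0584.

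**Figure D1:**
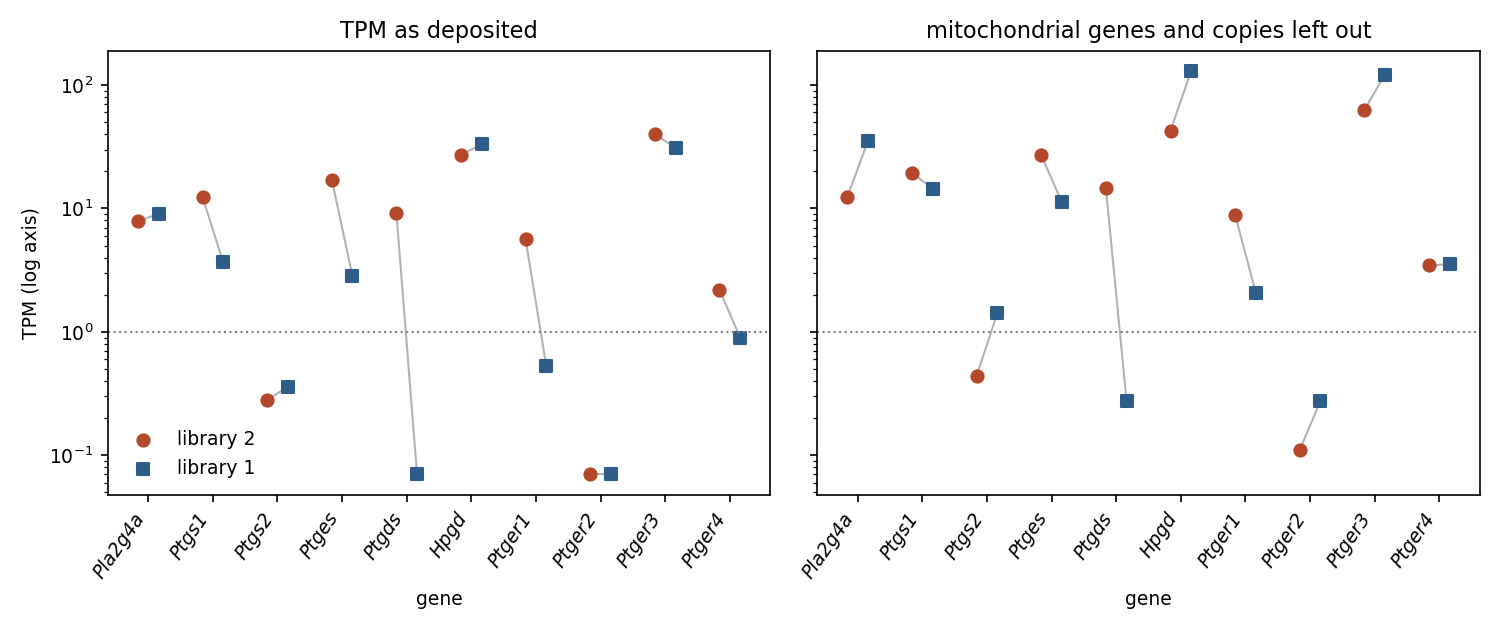
TPM (log axis) of each gene in library 2 (circles) and library 1 (squares), as deposited on the left and rescaled without mitochondrial genes and their 7 nuclear copies on the right, with a dotted line at 1 TPM. As deposited, Ptgds is at 9.22 TPM in library 2 and 0.07 TPM in library 1, the widest gap of the 10, and Hpgd and Ptger3 stand at the top in both libraries.

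Differences between the libraries were read from an exact two-sided binomial test over 15553 genes with Benjamini-Hochberg adjustment, with library sizes scaled by TMM so that most genes centre near a ratio of 1. A call needed an adjusted p below 0.05 together with a log2 ratio of 1 or more in either direction. Of the 10 genes, 6 were called: Ptges, Ptgds and Ptger1 were higher in library 2, and Pla2g4a, Ptgs2 and Hpgd were lower. Over all genes tested, 60.8% were called, 35.7% higher and 25.2% lower in library 2, so the 6 of 10 stand close to the share of all genes. The median log2 ratio was −0.53 over the 10 genes and 0.12 over all genes tested. TPM and the log2 ratio are scaled differently, so a gene can have the higher TPM in library 2 and still a negative log2 ratio, as Ptger3 and Ptger4 did. With all expected counts as library sizes in place of TMM, Ptger3 stayed negative at −0.08 and Ptger4 was at 0.83. On TPM rescaled without mitochondrial genes and their copies, Ptger3 stood at 62.9 in library 2 and 121.7 in library 1. Ptger4 stood at 3.45 and 3.53, so neither gene was then higher in library 2. Beyond these values the part of mitochondrial transcripts, which took more of library 1, was not tested.

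Pla2g4a (chr1:149829618-149961290, reverse strand) encodes the calcium-activated enzyme that starts the pathway. It had 7.91 TPM from 347 expected counts in library 2 and 9.02 TPM from 683 in library 1. The TPM were close, while the log2 ratio was −1.43 (exact 95% interval −1.62 to −1.24, adjusted p = 2.7e-54 by the exact binomial test). With all expected counts as library sizes in place of TMM it was −0.53 and not called. On TPM rescaled without mitochondrial genes and their copies, it stood at 12.5 in library 2 and 35.4 in library 1. At 42.1% GC the trend over all genes gave −1.45, and the gene differed from it by 0.017.

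The cyclooxygenases were represented almost wholly by Ptgs1, the form that most tissues express constantly. Ptgs1 (chr2:36230426-36252272, forward strand) had 12.4 TPM from 531 counts in library 2 and 3.67 TPM from 266 counts in library 1. Ptgs2 (chr1:150100031-150108227, forward strand), the inducible form, known in kidney from the macula densa, the thick limb and medullary interstitial cells, had 0.28 TPM from 20 counts in library 2 and 0.36 TPM from 48 counts in library 1. Ptgs1 thus made up 97.8% of cyclooxygenase TPM in library 2 and 91.1% in library 1, and the order held in both. The log2 ratio of Ptgs1 was 0.54 (interval 0.33 to 0.76, adjusted p = 6.1e-07, exact binomial test), below the size needed for a call, and with all expected counts as library sizes in place of TMM it was 1.44 and called. That of Ptgs2 was −1.70 (interval −2.55 to −0.94, adjusted p = 4.6e-06, exact binomial test), and on all expected counts −0.79 and not called. Both sat on the GC trend, Ptgs1 at 51.0% GC with a difference of 0.016 and Ptgs2 at 40.02% GC with a difference of 0.004. Ptgs2 and Pla2g4a are neighbours on chromosome 1, 139 kb apart.

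The terminal synthases were both higher in library 2. Ptges (chr2:30889471-30929863, reverse strand), whose product is the microsomal prostaglandin E synthase often induced together with Ptgs2, had 17.2 TPM from 856 counts in library 2 and 2.85 TPM from 304 counts in library 1. Its level was above that of Ptgs2 in both libraries. The log2 ratio was 1.04 (interval 0.85 to 1.23, adjusted p = 3.7e-29, exact binomial test) at 53.1% GC, where the trend gave 1.33, so that the difference from the trend was −0.29.

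Ptgds (chr2:25466709-25470046, reverse strand) encodes the lipocalin-type synthase of prostaglandin D2, also a secreted carrier protein. It had 9.22 TPM from 88 counts in library 2 and 0.07 TPM from 1 count in library 1. Its presence at more than 1 TPM therefore rests on library 2. The ratio from the counts alone was 64.2 with an exact interval from 11.2 to 2562, a width set by the single count. The log2 ratio, which carries the prior count of 0.5, was 5.43 and so corresponds to a smaller ratio. At 56.4% GC the trend gave 3.18, which left 2.25 on the log2 scale.

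Hpgd (chr8:56294585-56321043, forward strand), the inactivating enzyme, had 27.1 TPM from 682 counts in library 2 and 33.2 TPM from 1563 counts in library 1. It was 1 of the 2 most abundant genes in both libraries, and its mean TPM exceeded that of each synthase gene among the 10. The log2 ratio was −1.65 (interval −1.78 to −1.52, adjusted p = 5.3e-151, exact binomial test), and on all expected counts −0.75 and not called. The trend at its 40.5% GC gave the same −1.65. On the rescaled TPM Hpgd stood at 42.7 in library 2 and 130.2 in library 1.

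Among the receptors Ptger3 led. Ptger3 (chr3:157566892-157645888, forward strand), whose EP3 product is known from the thick ascending limb and the collecting duct, had 39.9 TPM from 1239 counts in library 2 and 31.0 TPM from 1783 counts in library 1. This was 83.5% of the summed TPM of the 4 receptor genes in library 2 and 95.4% in library 1. The log2 ratio was −0.98 (interval −1.09 to −0.88, adjusted p = 1.7e-76, exact binomial test), just under the size needed for a call. With all expected counts as library sizes it was −0.08, so the size of the log2 ratio rests on the scaling. The median log2 ratio over all genes tested was then 1.03, against 0.12 with TMM. Ptger3 thus lay below the median of all genes under both scalings. At 53.3% GC the trend gave 1.42, so Ptger3 differed from the trend by −2.40, the lowest such value among the 10 genes. For Ptges, at nearly the same GC content, it was −0.29. The 53.3% is the GC content of Ptger3-202 alone. Ptger3-201, with 936 of the 1783 counts in library 1, has 48.9% GC in the reference and was left out for its length. Near that value, at 48.85% GC, the trend gave −0.147, so the size of the Ptger3 difference depends on the transcript chosen.

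Ptger1 (chr8:83666678-83672753, forward strand), whose EP1 product is known from the collecting duct, had 5.62 TPM from 361 counts in library 2 and 0.53 TPM from 55 counts in library 1. The log2 ratio was 2.25 (interval 1.85 to 2.70, adjusted p = 3.8e-37, exact binomial test), and at 58.5% GC it differed from the trend by −1.99. Ptger4 (chr15:5206661-5244187, reverse strand), whose EP4 product raises cAMP and is known for its part in renin release, had 2.19 TPM from 111 counts in library 2 and 0.9 TPM from 85 counts in library 1. Its log2 ratio of −0.07 (interval −0.49 to 0.35, adjusted p = 0.79, exact binomial test) did not pass the test. With all expected counts as library sizes it was 0.83. Ptger2 (chr14:44988195-45003820, forward strand), the other cAMP-raising receptor gene, had 0.07 TPM in each library, from 4 counts in library 2 and 8 in library 1. Its log2 ratio of −1.37 did not pass the test (interval −3.64 to 0.44, adjusted p = 0.16, exact binomial test), so that no difference was detectable at this depth.

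**Figure D2:**
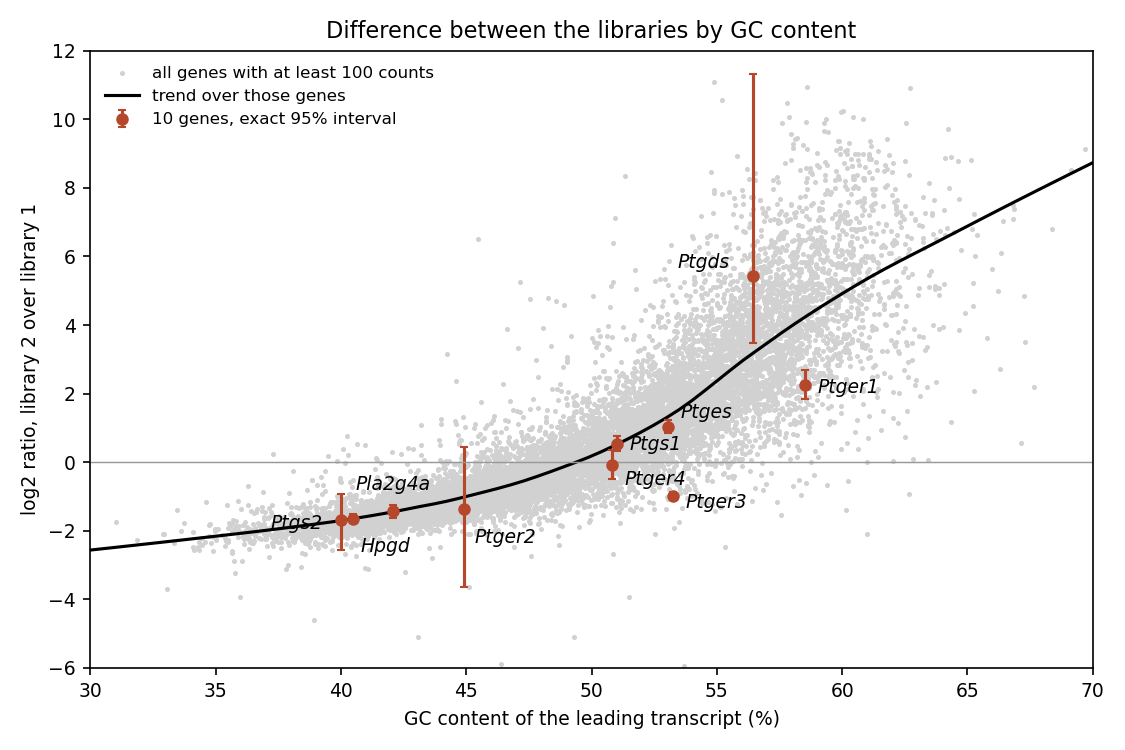
Log2 ratio of library 2 over library 1 against the GC content of the leading transcript in percent, for every gene with 100 or more counts in all (grey), their trend (line) and the 10 genes (points with exact 95% intervals). Pla2g4a, Ptgs1, Ptgs2 and Hpgd lie on the line, Ptger1 and Ptger3 lie below it with differences of −1.99 and −2.40, and Ptgds lies above it with a difference of 2.25.

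The GC content of the 10 genes ran from 40.02% for Ptgs2 to 58.5% for Ptger1, and the order of their log2 ratios largely followed it (Spearman's rho 0.92 across 10 genes, which share both libraries and are not independent replicates). With the trend over all genes taken out, 4 of the 10 lay within 0.1 of it, against 14.2% of all genes with at least 100 counts, and 3 lay more than 1 away, against 24.3% of those genes. Ptgs2, Ptgds and Ptger2 had fewer than 100 counts. Of the 7 genes on the same basis as those shares, 3 lay within 0.1 and 2 more than 1 away. The 3 of all 10 that lay more than 1 away, Ptgds, Ptger1 and Ptger3, were also the genes called once the trend was removed, Ptger1 then as lower in library 2. For Ptgds this rests on 1 count in library 1, and for Ptger3 on the GC content of Ptger3-202 alone. G and C were less frequent after the stop codon than within the coding part in each of 10 coding transcripts, 1 per gene. The gap was widest in Ptger3-202, with 61.8% in the coding part and 39.7% after the stop, and narrowest in Ptgds-201, with 57.0% and 52.5%.

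The transcript shares, which were deposited as a percent of each gene, differed between the libraries for Ptger3 and Ptger1. Ptger3-202 took 74.3% of Ptger3 in library 2 and 46.4% in library 1, and Ptger3-201 took 25.8% in library 2 and 53.6% in library 1. In TPM, Ptger3-202 stood at 29.6 in library 2 and 14.4 in library 1, and Ptger3-201 at 10.3 in library 2 and 16.6 in library 1. By these shares, which are of whole transcripts, the leading form of the EP3 coding end therefore differed between the libraries. The form with the higher GC content in the printed capitals led in library 2, and a link between the 2 was not tested. The deposited Ptger3-201 measured 2018 bases against 3148 in the reference, so the printed reference sequence may differ from the transcript that was counted. In mouse, forms of EP3 that differ in this C-terminal tail are known to differ in G protein coupling and desensitisation.

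Ptger1-201, the coding transcript, took 59.9% of Ptger1 in library 2 and 9.56% in library 1. Ptger1-202, annotated as a retained intron, took 40.1% in library 2 and 90.4% in library 1. The counts behind them were 239 and 122 in library 2 and 6.71 and 48.3 in library 1. In library 1, where the gene had 0.53 TPM, 0.05 TPM belonged to the coding transcript. The gene's difference of −1.99 from the GC trend was taken over the counts of both transcripts together. The level of Ptger1, its split between transcripts and that difference are uncertain, since no source used here gives the strand setting of the counting.

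**Figure D3:**
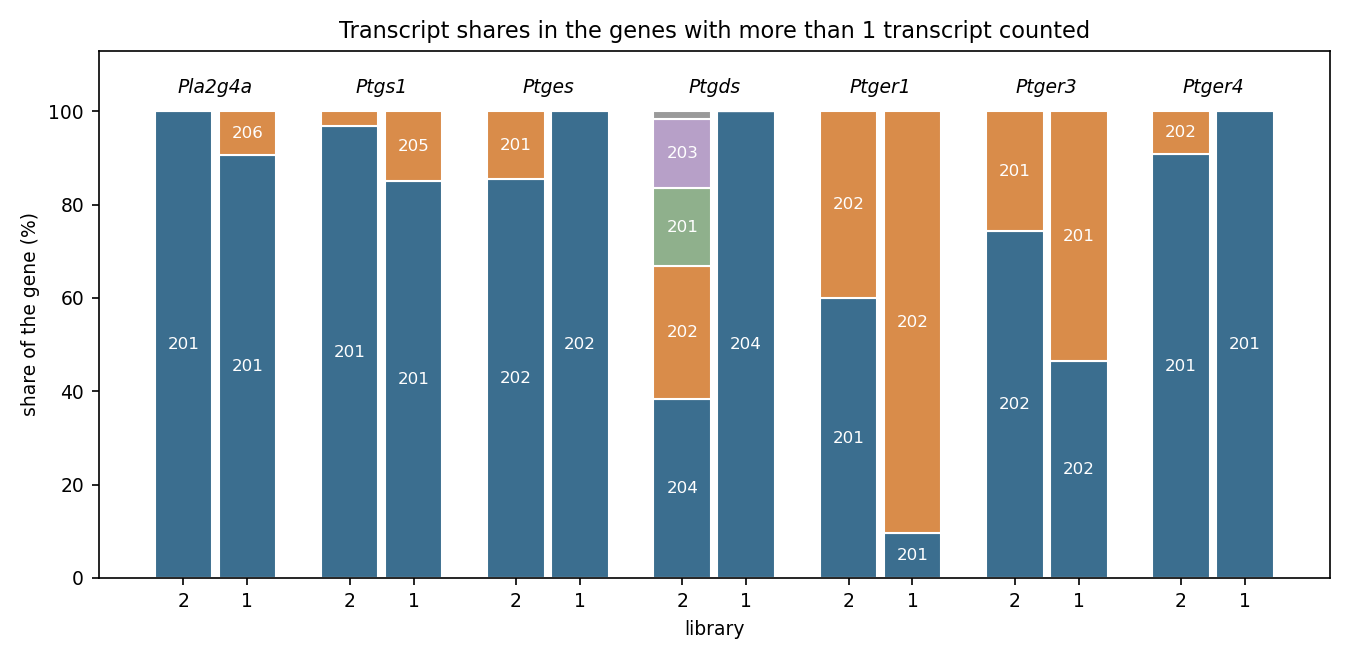
Share of each gene's TPM (percent) taken by its transcripts, numbered in the bars, in library 2 (left bar of a pair) and library 1 (right bar), for the 7 genes with more than 1 transcript counted. Ptger1-202 and Ptger3-201 take the larger share in library 1, and Ptgds has 5 transcripts in library 2 and 1 in library 1.

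For the other genes 1 transcript led in both libraries. Pla2g4a-201 took all of its gene in library 2 and 90.6% in library 1, Ptgs1-201 96.8% and 85.02%, Ptges-202 85.5% and 100%, and Ptger4-201 90.8% and 100%. Hpgd and Ptger2 had 1 transcript each, and Ptgs2-201 held all counts of Ptgs2. In Ptgds the 88 counts of library 2 were spread over 5 transcripts, of which Ptgds-204, a processed transcript without a coding part, took 38.4% and Ptgds-202, a coding one, 28.4%. The 1 count of library 1 was given to Ptgds-204. No gene of the 10 shared at least 50% of its leading transcript at 95% identity or more with another gene. Ptger2 shared 6.68% of its leading transcript with the antisense gene Gm17173, which had 1 count in library 2 and 0 in library 1, and Ptger4 shared 0 with Ttc33.

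Of 33 other genes of the pathway in 4 lists, 19 had enough counts to be tested, of which 9 were called higher and 3 lower in library 2, while 7 were not called. Over all genes tested the shares were 60.8% called, 35.7% higher and 25.2% lower, so the 12 of 19 called stand close to the share of all genes. Of the 12 called, 3 lay more than 1 from the GC trend on the log2 scale: Ptges2, Cbr1 and Fam213b. Of all genes with at least 100 counts, called or not, 24.3% lay that far from it, so the 3 of 12 stand close to that share. Among the 8 other prostanoid synthases, 5 were called higher and 2 lower. The most abundant by mean TPM and in library 2 was Cbr1, a carbonyl reductase that can turn prostaglandin E2 into F2 alpha, with 456 TPM in library 2 against 23.4 TPM in library 1. Akr1b3, an aldose reductase with prostaglandin F synthase activity, reached 157 TPM in library 2 against 52.4 TPM in library 1. The cytosolic prostaglandin E synthase gene Ptges3, also known as a cochaperone, had 60.5 and 98.5 TPM in library 2 and library 1, and it was called lower. In library 1 Ptges3 and Akr1b3 stood above Cbr1. All 3 stood above Ptges in both libraries, and each has known roles outside prostaglandin synthesis.

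The membrane-associated E synthase gene Ptges2 stood at 43.4 TPM in library 2 against 0.45 TPM in library 1, and Fam213b, listed under its newer name Prxl2b as a prostaglandin F synthase gene, had 24.5 and 0.37 TPM. Both were called higher in library 2, as was Ptgis, the prostacyclin synthase gene (5.18 and 0.17 TPM). Tbxas1, the thromboxane synthase gene, had 11.0 and 2.43 TPM and was not called. The haematopoietic D synthase gene Hpgds had 1.03 and 0.55 TPM and was called lower, whereas Ptgds was called higher. Ptges2 (56.6% GC) and Fam213b (57.8%) differed from the GC trend by 2.76 and 1.33 on the log2 scale, and Cbr1 by 1.85. The differences were smaller for Ptgis, at 0.19, Hpgds (42.1% GC), at −0.40, and Ptges3 (43.3% GC), at −0.79.

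Of the 16 other phospholipases A2, 13 were under 1 TPM in both libraries and 8 of these had no count in either, which allows up to 3 counts per library. The 3 above 1 TPM were Pla2g12a (16.2 TPM in library 2 and 5.24 TPM in library 1), Pla2g5 (13.4 and 2.2 TPM) and the calcium-independent Pla2g6 (8.87 and 0.14 TPM). Pla2g5 and Pla2g6 were called higher in library 2. In library 1 Pla2g4a stood above all 16, and in library 2 both Pla2g12a and Pla2g5 stood above it, as did Pla2g6.

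The transport and breakdown genes were led by Ptgr2, a reductase that acts after Hpgd, with 86.8 TPM in library 2 and 49.8 TPM in library 1. Abcc4, an export pump that carries prostaglandins among other substrates, had 35.4 and 14.5 TPM. Slco2a1, the prostaglandin uptake transporter, had 11.1 and 1.09 TPM and was the 1 gene of these 4 to be called, as higher in library 2. Ptgr1, another reductase, had 3.17 and 0.92 TPM.

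Among the receptors for other prostanoids, Ptgfr, the F2 alpha receptor gene, led with 21.4 TPM in library 2 and 12.2 TPM in library 1 and was called lower. It stood second to Ptger3 among the 9 prostanoid receptor genes in both libraries. Tbxa2r, the thromboxane receptor gene, had 84 counts in library 2 and 0 in library 1, which is 20.4-fold higher in library 2 against a floor of 3 counts, with a lower bound of 16.2-fold from the exact 95% interval. Ptgir, the prostacyclin receptor gene, had 1.6 and 0.41 TPM and was not called. The D2 receptor genes Ptgdr and Ptgdr2 had at most 1 count in a library.

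**Figure D4:**
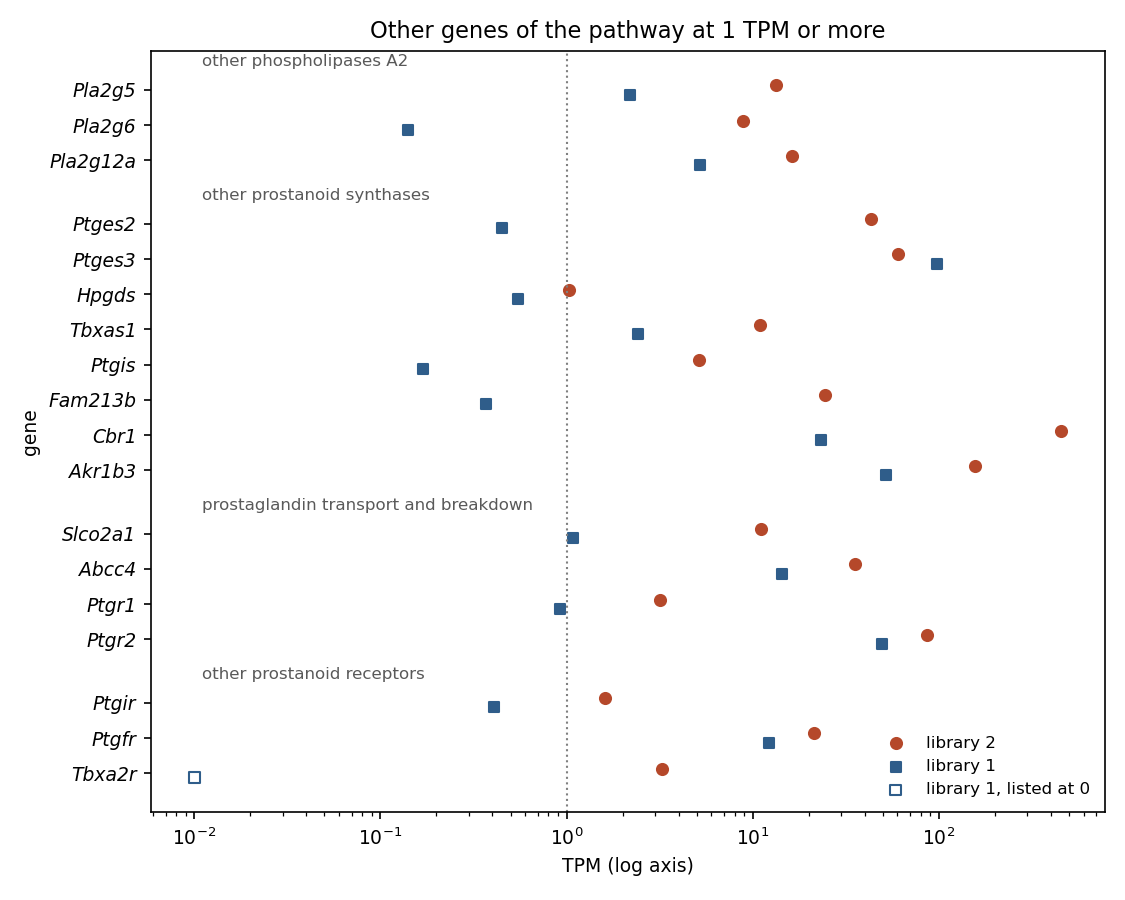
TPM (log axis) in library 2 (circles) and library 1 (squares) of the 18 other pathway genes that reached 1 TPM in at least 1 library, grouped by role, with a dotted line at 1 TPM and an open square at the left edge for a gene listed at 0. Ptges3 alone of the 18 has the higher TPM in library 1.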

How the data were processed

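The tables hold genes and transcripts of annotation M4 on mm10, as the text deposited with them says. No source used here gives the aligner, the quantifier or the strand setting. Per the file headers, expected counts and posterior mean counts were deposited, with no normalization. TPM values and bounds of a credibility interval of TPM, whose level is not given, were deposited, scaled by the authors to a common sum per library, per the file headers. Transcript shares were deposited as a percent of the gene. Symbols, coordinates and sequences are those of GENCODE M21, also on GRCm38. Counts were rounded to whole numbers, and TMM factors (edgeR 4.0.16, R 4.3.3) from genes with at least 10 counts scaled the libraries. With 1 library on each side no quasi-likelihood model could be fitted, so an exact conditional binomial test was run (scipy 1.17.1), with log2 ratios at a prior count of 0.5. On simulated counts of 15341 genes it recovered all 100 genes made 3-fold higher and all 100 made 8-fold lower, and called 1 of 15141 unchanged genes. The simulation held counting error only, with no GC trend, and the changed genes were not drawn from those with few counts. It therefore cannot show how the test behaves on these 2 libraries or on genes with few counts. GC content came from the leading transcript, the one of highest mean TPM whose length lay within 10% of the reference, and its trend from lowess with a 20% span over 11508 genes with at least 100 counts (statsmodels 0.14.6). TPM were also rescaled without 37 mitochondrial genes and 7 nuclear copies. Shared sequence was searched with blastn 2.17.0. Intervals and floors cover counting error only, and nothing in the labels makes the libraries separate animals. All 10 genes are named, the other pathway genes where they reached 1 TPM in a library, and overlapping genes where both had counts, 1 of which is not reported here. Without a known strand setting, reads of genes that overlap on opposite strands cannot be told apart. The genes and lists were chosen with earlier results of these data known. Alternatives were DESeq2 1.42.0 size factors, total counts, TMM without mitochondrial genes, posterior mean counts, removal of the GC trend, no filter, other TPM thresholds and each library alone.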

Additional observations from a re-analysis of the deposited data

How the results depend on the processing

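The count of genes called different was 9463 with TMM and 3305 with the GC trend removed, and that of the 10 genes called was 6 and 3. Under DESeq2 size factors, TMM without mitochondrial genes, posterior mean counts and no filter on low counts the same 6 of the 10 were called. With total expected counts as library sizes 4 were called, all higher in library 2, among 8399 genes of which 91.5% were higher, against 58.6% with TMM, and the median log2 ratio of all genes was 1.03, against 0.12. The log2 ratio of Ptger4 then changed sign to 0.83. With the GC trend removed, that of Ptger1 became −1.99, that of Ptges −0.29 and that of Pla2g4a 0.017. Of the 10 genes, 5 reached 1 TPM in both libraries. With each library used by itself, 8 reached it in library 2 and 5 in library 1. Either mitochondrial rescaling gave 7, the one without nuclear copies having been chosen after the data were seen. The posterior mean TPM of Ptgs2 averaged 0.585, against 0.32. Shares from posterior mean TPM averaged 74.7% for Pla2g4a-201, against 95.3%. They averaged 73.9% for Ptger4-201, against 95.4%, and 55.7% for Ptgs2-201, against 100%. No paired analysis was possible because there was 1 group. Depth limits Ptgs2, Ptger2 and Ptgds.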

Other observations

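The posterior estimates gave Ptgs2 0.62 TPM in library 2 and 0.55 TPM in library 1. Of these, 54.4% in library 2 and 34.1% in library 1 belonged to Ptgs2-202, a transcript of 358 bases with no expected count in either library. Such a value was not particular to Ptgs2-202, which had a posterior mean TPM of 0.34 in library 2 and 0.19 in library 1. Pla2g4a-203, of 247 bases and also with no expected count, had 1.55 in library 2 and 0.56 in library 1. These posterior values are therefore no sign of reads from Ptgs2-202. The cause was not tested.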
